A study of Mus musculus with 6 samples.

Results

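Endothelial genes, a set of 36 transcripts typical of the cells that line blood and lymphatic vessels, were followed in RNA of the mouse abdominal aorta after deletion of *Prdm16* in vascular smooth muscle cells (VSMCs). The list was drawn up with earlier results of these data known, its members were found by gene symbol, and each of the 36 symbols matched 1 of the 55426 genes in the deposited values. PRDM16 is a zinc finger transcription regulator, and the comparison asks how its loss from VSMCs relates to the RNA of the neighboring endothelium. Total RNA was taken from whole abdominal aortas of 3 control mice and 3 *Prdm16*SMKO mice, with 1 library per mouse. Replicates are numbered 1 to 3 in each group, and values are listed in that order. The mice were C57BL/6J males that received tamoxifen by gavage at 75 mg/kg/day for 5 days from 8 to 10 weeks of age, and RNA was isolated 2 weeks afterward. Controls carried *Myh11*-CreERT2, a tamoxifen-inducible Cre recombinase driven by the smooth muscle *Myh11* promoter from the Y chromosome, and *Prdm16*SMKO mice were *Prdm16* fl/fl *Myh11*-CreERT2, so that both groups shared the Cre and the tamoxifen. The latter mice are called knockouts. The Cre is not meant to act in endothelial cells, and whether it did was not tested.

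Endothelial cells form a single layer that seals the vessel with junction proteins such as VE-cadherin and claudin-5, senses VEGF through receptor tyrosine kinases, and stores von Willebrand factor for hemostasis. Their identity is maintained by ETS factors such as ERG and by the SOXF factors SOX7, SOX17 and SOX18. Arterial endothelium is set apart by connexins 37 and 40, lymphatic endothelium by PROX1, VEGFR-3 and podoplanin, and activated endothelium by the selectins and cell adhesion molecules that capture leukocytes.

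The deposited values are TPM (transcripts scaled to a fixed library total and to transcript length), so that levels of different genes can be ranked within a library. Mean TPM over the 6 libraries ran from 0.403 for *Sele* to 102 for *Pecam1*, with a median of 14.5 over the 36 genes. Endothelial RNA was present by its defining markers, since *Pecam1*, *Egfl7*, *Erg*, *Cldn5*, *Vwf*, *Cdh5*, *Flt1*, *Kdr* and *Emcn* were all detected in every library. Smooth muscle RNA was far more abundant, with *Acta2* at 6975 to 13019.9 TPM in controls and 5256 to 8100 TPM in knockout mice and *Myh11* at 1691 to 3242 TPM and 1488 to 2507 TPM. In whole aorta, fewer endothelial cells and less of a transcript per endothelial cell cannot be told apart. The reads behind each TPM are unknown, so that no counting error could be attached to a single value. Genes above 0 TPM numbered 20332 to 22100 per library, and the 45S ribosomal RNA locus and mitochondrial transcripts took 15.5% to 31.4% and 15.8% to 27.4% of a library's TPM. For 11 of the 36 genes some exons overlap those of another gene, and the library kit did not mark strand, so that reads from the overlapping gene may be included (*Cd34*, *Ecscr*, *Egfl7*, *Eng*, *Gja5*, *Icam1*, *Prox1*, *Rasip1*, *Selp*, *Sox17* and *Vcam1*).

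**Figure D1:**
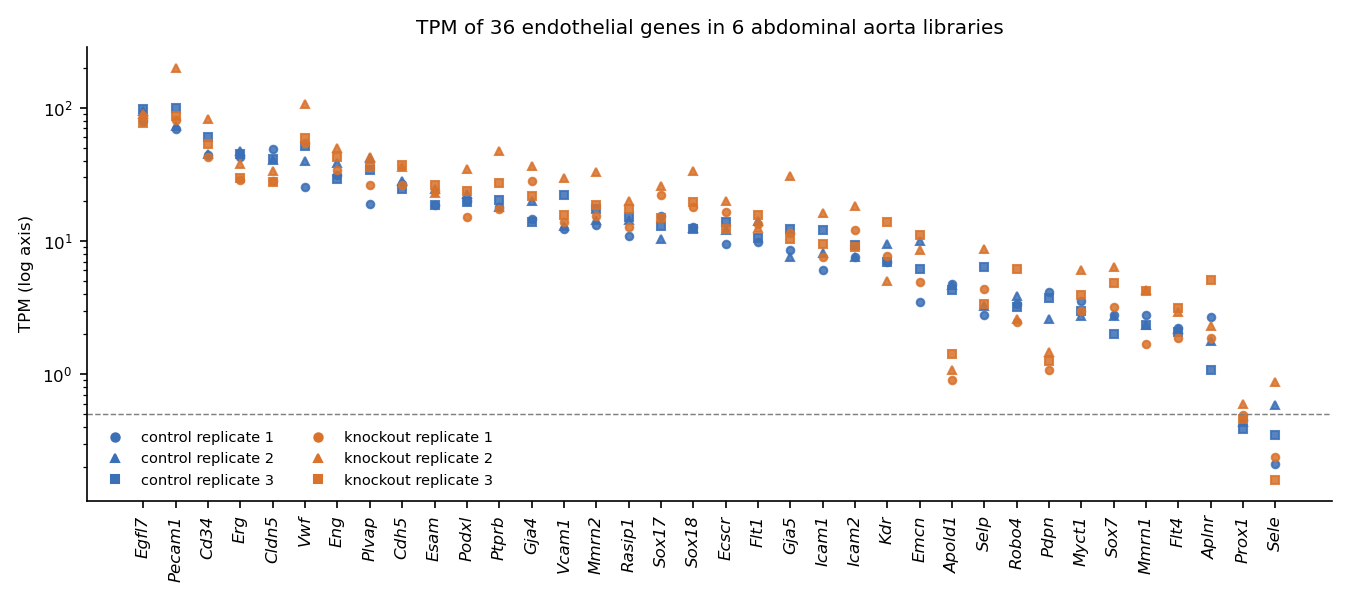
TPM (y axis, log scale) of the 36 endothelial genes (x axis, ordered by control mean) in each library, with control libraries in blue, knockout libraries in orange, and circles, triangles and squares for replicates 1, 2 and 3. The dashed line is the minimum mean of 0.5 TPM for testing, which *Prox1* and *Sele* did not reach, and the orange triangle of replicate 2 is the highest point of many genes.

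Expression was compared on log2(TPM + 0.5), a scale that understates changes of genes with low TPM, by limma over 15775 genes that averaged 0.5 TPM or more, and p-values were adjusted over all of them by the Benjamini-Hochberg method. *Prdm16*, the targeted gene, measured 33.4, 36.8 and 30.8 TPM in the control libraries and 20.8, 27.7 and 14.8 TPM in the knockout libraries, without overlap, with a log2 fold change of −0.70 and an SE of 0.23 (limma, adjusted p = 0.376). Other cells of the aorta also make *Prdm16*, and its TPM pools all exons.

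Of the 36 genes, 34 were tested. Only *Apold1* fell in knockout mice at an adjusted p under 0.05 (limma), 1 of 34 genes, against 0.355% of all tested genes called in either direction and 0.171% called lower. By mean log2 value, 28 genes were higher and 6 lower (*Apold1*, *Pdpn*, *Cldn5*, *Erg*, *Egfl7* and *Robo4*), where 54.2% of all tested genes were higher. The median log2 fold change was 0.31 over the 34 genes and 0.02 over all tested genes, with no test of the list. It did not hold in every library, since the median deviation of the 34 genes from their own means over the 6 libraries, in log2 units, was −0.26, −0.13 and −0.11 in the controls and −0.21, 0.53 and 0.12 in the knockouts, with knockout replicate 1 inside the control range. Markers of other cells moved beside the endothelial genes. Of 7 VSMC markers 6 were lower and 1 higher, 2 of them lower at an unadjusted p under 0.05, with a median log2 fold change of −0.46 and summed TPM of 14793 to 25106 in controls and 11360 to 17397 in knockouts. All 5 white adipocyte markers were higher, 1 at an unadjusted p under 0.05, with a median of 1.02 and summed TPM of 327 to 767 and 586 to 1970.1, highest in knockout replicate 3. Markers of other attached tissue differed widely among the knockout libraries. Brown adipocyte markers summed to 85.9, 5.09 and 478 TPM, against 48.0 to 159 TPM in controls. The 2 tested, *Ucp1* and *Cidea*, were lower by mean log2 value but higher by mean TPM. Their means were 64.3 and 125 TPM in knockouts and 24.6 and 68.5 TPM in controls. Neuron and Schwann cell markers summed to 265, 40.1 and 5.30 TPM, against 6.01 to 71.3 TPM, and skeletal muscle markers to 61.3, 3.91 and 1.79 TPM, against 4.31 to 8.80 TPM. None of these markers was called, and their part in the endothelial values was not tested. An unadjusted p under 0.05 was reached by 10 of the 34 genes, beside 8.74% of all tested genes. Of these, *Gja4*, *Icam2*, *Sox7*, *Sox17*, *Sox18* and *Vwf* were higher, beside 4.88% of all tested genes higher at that p, and *Apold1*, *Cldn5*, *Erg* and *Pdpn* were lower, beside 3.85%. Values of 8 of the 34 genes were free of overlap between the groups, 4 higher (*Gja4*, *Sox7*, *Sox18* and *Vwf*) and 4 lower (*Apold1*, *Cldn5*, *Erg* and *Pdpn*), beside 12.8% of all tested genes, 7.02% higher and 5.76% lower. The smallest p of an exact two-sided permutation test on 1 gene is 0.1 at this group size, which is the value for each gene whose groups did not overlap.

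**Figure D2:**
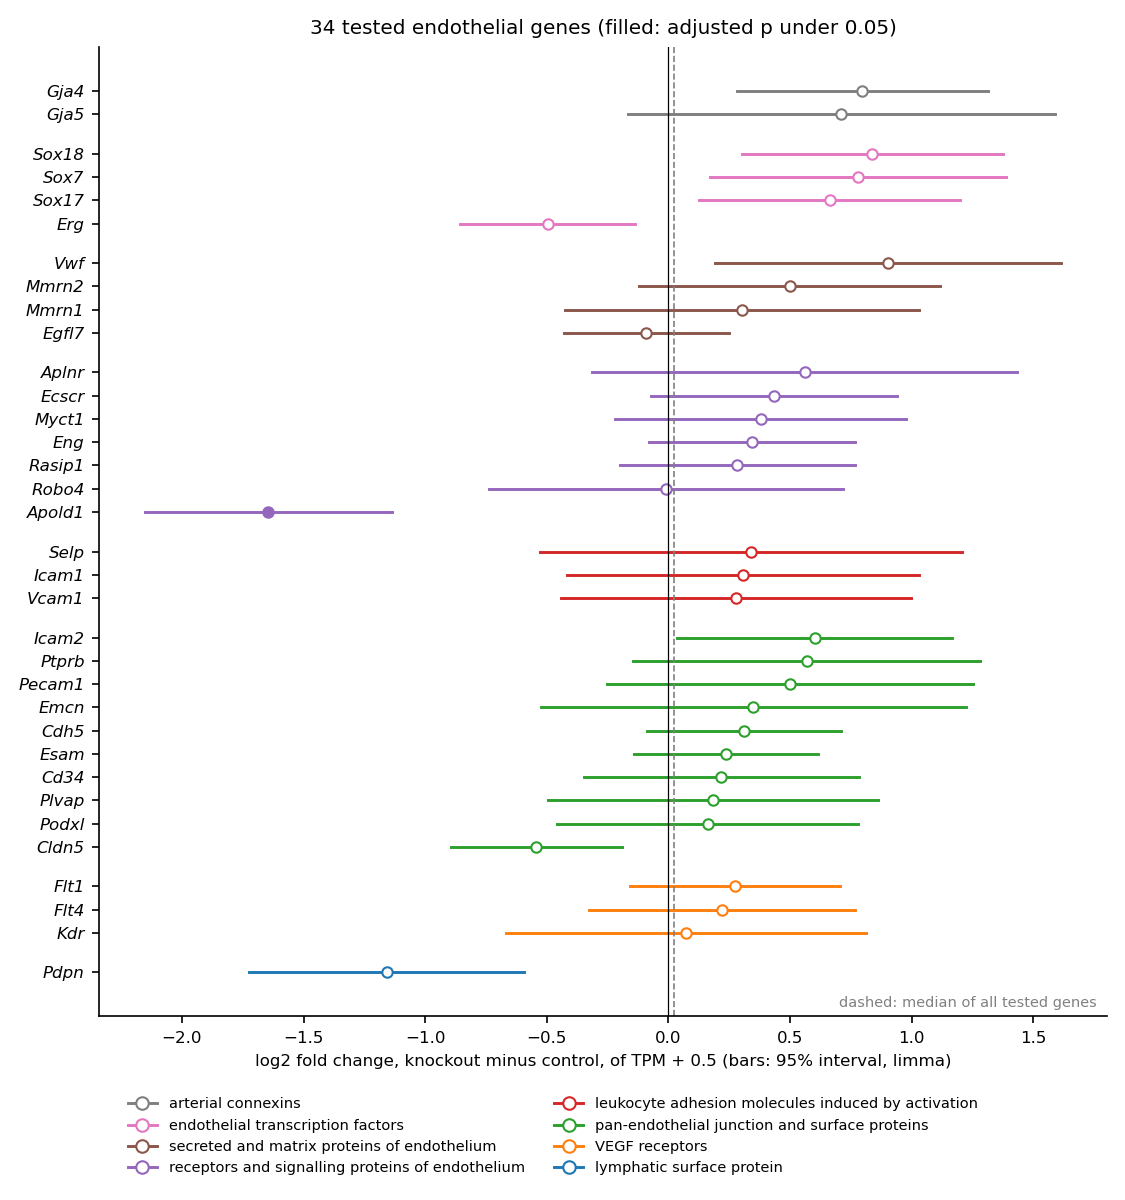
Log2 fold change of TPM + 0.5 (x axis, knockout minus control, with 95% intervals of limma) of the 34 tested endothelial genes, colored by role, with the dashed line at the median of all tested genes. Only *Apold1*, the filled point at −1.64, had an adjusted p under 0.05, and 28 points lie above 0.

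Replicate 2 of the knockout group stood apart from the other libraries in the endothelial genes. Among the 34 genes, 21 had their highest value in knockout replicate 2, which was the highest library for 19.5% of all tested genes, and 18 of 28 other endothelial genes not among the members were highest there too. Summed TPM of the 36 genes was 603, 695 and 734 in the control libraries and 669, 1109 and 751 in the knockout libraries. The sum in replicate 2 lay above the other 5 libraries. That of knockout replicate 1 lay within the control range, and that of knockout replicate 3 was slightly above every control. Transcripts of blood cells were also highest in that library. The 5 erythroid markers, globins and *Alas2*, summed to 3167, 1143 and 1329 TPM in the control libraries and to 4947, 19568 and 2191 TPM in the knockout libraries. The 5 platelet markers, among them *Pf4* and *Ppbp*, summed to 29.15, 13.1 and 20.7 TPM in the control libraries and to 19.2, 102 and 24.6 TPM in the knockout libraries. All 5 erythroid and all 5 platelet markers were higher by fold change, 5 and 0 of them at an unadjusted p under 0.05, and all were above 0 in every library. Control replicate 1 had the lowest endothelial sum and the highest erythroid and platelet sums of the controls. Knockout replicate 1 had an erythroid sum above every control and an endothelial sum within the control range. Summed adventitial fibroblast, pericyte and macrophage markers also peaked in knockout replicate 2, at 1759, 2910 and 162 TPM. The pericyte sum was mostly *Rgs5*, at 2616 TPM in that library. By fold change 2 of the 5 pericyte markers were higher and 3 lower. The 3 lower, *Kcnj8*, *Cspg4* and *Pdgfrb*, were highest in control replicate 2. The part of these blood cell, fibroblast, pericyte and macrophage markers in the endothelial values was not tested. Without knockout replicate 2 the median log2 fold change of the 34 genes was 0.17, with 25 higher and 9 lower, 6 had an unadjusted p under 0.05 beside 7.33% of all tested genes, and the number called was 0.

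**Figure D3:**
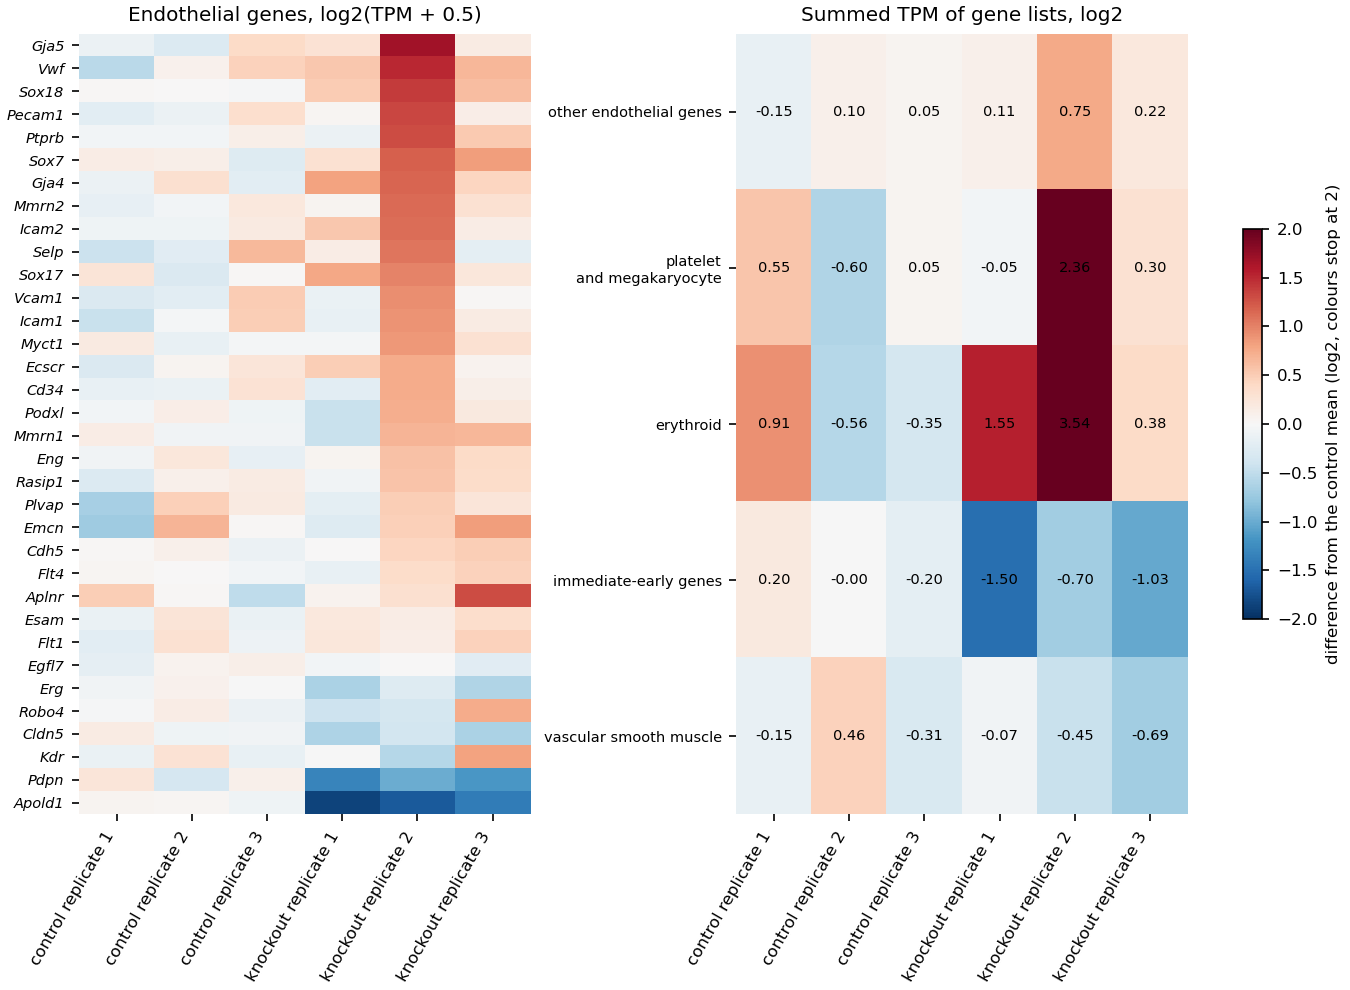
Left, difference of log2(TPM + 0.5) from the control mean (color, log2 units, cut at 2) for the 34 tested endothelial genes (rows) in each library (columns). Right, the same difference for summed TPM of gene lists, where knockout replicate 2 was above the controls by 2.36 for platelet and 3.54 for erythroid markers, and immediate-early genes were below in all 3 knockout libraries.

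*Apold1* encodes an endothelial early response protein, apolipoprotein L domain containing 1, that is known to be induced quickly and briefly. It measured 4.75, 4.67 and 4.26 TPM in the control libraries and 0.90, 1.08 and 1.41 TPM in the knockout libraries. The 3 knockout libraries all lay under the 3 controls, and replicate 2, the library with the highest summed endothelial TPM, was no exception. The mean was 4.56 ± 0.263 TPM (SD, n = 3) in controls and 1.13 ± 0.259 TPM (SD, n = 3) in knockouts, or 4.04 times as much in control. The log2 fold change was −1.64 with an SE of 0.22 (limma, Benjamini-Hochberg adjusted p = 0.0265). Under 16 alternative settings the log2 fold change stayed between −1.995 and −1.39, and the adjusted p ran from 0.00276 to 0.164 and was under 0.05 in 10 of them. The 6 settings in which it was over 0.05 included those without control replicate 1, 2 or 3 (adjusted p = 0.143, 0.120 and 0.0999) and without knockout replicate 2 (adjusted p = 0.0775), and that with no expression minimum (adjusted p = 0.138). *Apold1* (ENSMUSG00000090698) lies on the plus strand of chromosome 6 at 134981718 to 134986836 (GRCm38). The 30 bases at chr6:134981957-134981986, upstream of a RefSeq start, hold a TATA box (TATAAA on either strand, in capitals), the first letter of which lies 32 bases before that start. They are shown because the gene was the only one called, and they also lie in an exon of another annotated *Apold1* transcript.
Apold1: gctcctgggagcTATAAAgtatgctcgtcc
Of the 36 genes, 21 had promoter entries in RefSeq (GRCm38.p6), with 26 windows of 250 bases upstream of a start. A TATA box was found in 6 of these 26 windows (23.1%) and in 12.4% of 32851 windows of all genes.

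Other genes that respond within minutes to stimulation were also lower in knockout mice. Among 18 immediate-early genes, which are made in many cell types, 17 were lower and 1 was higher, 13 were lower at an unadjusted p under 0.05, and 6 fell at an adjusted p under 0.05 (limma, Benjamini-Hochberg), with a median log2 fold change of −1.06. The 6 were *Nr4a1*, *Nr4a2*, *Arc*, *Atf3*, *Egr3* and *Fosb*, with log2 fold changes from −2.45 to −1.29. Summed TPM of the 18 genes was 933 to 1227 in controls and 377 to 657 in knockout mice. *Nr4a1*, an orphan nuclear receptor, measured 131, 130.2 and 187 TPM in control and 19.8, 26.2 and 36.2 TPM in the knockout libraries. The relation of this list to the *Apold1* values was not tested.

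Among the junction and surface proteins common to all endothelium, 10 genes, 9 were higher and 1 was lower, and none was called. *Pecam1*, the platelet and endothelial cell adhesion molecule CD31, had the highest mean of the 36 genes. It measured 68.7, 72.7 and 99.6 TPM in the control libraries and 81.3, 199.98 and 86.9 TPM in the knockout libraries. Replicate 2 was more than any other library and the other knockout values lay within the control range. The mean was 80.3 ± 16.8 TPM (SD, n = 3) in controls and 122.7 ± 67.0 TPM (SD, n = 3) in knockouts, with a log2 fold change of 0.50 and an SE of 0.33 (limma, adjusted p = 0.808). *Cdh5*, which encodes VE-cadherin of the adherens junction, measured 26.7, 28.2 and 24.3 TPM in control and 26.4, 35.8 and 37.4 TPM in the knockout libraries. The groups overlapped, and the log2 fold change was 0.31 with an SE of 0.18 (limma, adjusted p = 0.722).

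*Cldn5*, the main claudin of endothelial tight junctions, was the 1 gene of this group with a lower mean. It measured 48.7, 40.6 and 41.2 TPM in the control libraries and 28.1, 33.3 and 27.7 TPM in the knockout libraries. Each knockout library was below the controls, including replicate 2, where 21 of the 34 genes peaked. The mean was 43.5 ± 4.51 TPM (SD, n = 3) in controls and 29.7 ± 3.16 TPM (SD, n = 3) in knockouts. The log2 fold change was −0.54 with an SE of 0.15 and an unadjusted p of 0.00695 in limma, but it did not pass the adjustment (adjusted p = 0.295). In 16 alternatives it lay between −0.89 and −0.46 with an unadjusted p under 0.05 in each, and the adjusted p ran from 0.0256 to 0.768. *Cldn5* (ENSMUSG00000041378) lies on the plus strand of chromosome 16 at 18776847 to 18778262 (GRCm38). Its 250 upstream bases, chr16:18776597-18776846, are shown in lower case because they hold neither an ETS core (GGAA on either strand) nor a SOX core (ACAAT on either strand). These motifs and the TATA box can share at most 1 letter where they meet.
Cldn5: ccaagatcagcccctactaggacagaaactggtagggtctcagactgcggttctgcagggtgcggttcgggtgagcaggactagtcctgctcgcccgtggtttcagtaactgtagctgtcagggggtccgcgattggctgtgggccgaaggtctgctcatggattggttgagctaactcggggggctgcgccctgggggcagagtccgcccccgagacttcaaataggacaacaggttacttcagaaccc
An ETS core was found in 24 of the 26 windows of the endothelial genes (92.3%) and in 93.4% of all 32851 windows. A SOX core was found in 8 of the 26 windows (30.8%) and in 27.7% of all windows.

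*Icam2*, a constitutive ligand for leukocyte integrins, measured 7.62, 7.61 and 9.27 TPM in control and 12.1, 18.2 and 9.06 TPM in the knockout libraries. Replicate 3 lay within the control range, and the log2 fold change of 0.60 with an SE of 0.25 did not pass the adjustment (limma, unadjusted p = 0.0396, adjusted p = 0.537). *Ptprb*, the phosphatase that acts on VE-cadherin and TIE2, *Emcn*, the sialomucin endomucin, *Esam*, a tight junction adhesion molecule, *Cd34* and *Podxl*, sialomucins of the luminal surface, and *Plvap*, which forms the diaphragms of fenestrae and caveolae, had mean TPM from 7.35 for *Emcn* to 54.9 for *Cd34*. Their log2 fold changes ran from 0.16 for *Podxl* to 0.57 for *Ptprb*, with overlapping groups and no unadjusted p under 0.05.

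The VEGF receptors overlapped between groups. *Flt1* encodes VEGFR-1 and measured 9.78, 14.1 and 10.6 TPM in control and 13.4, 12.5 and 15.8 TPM in the knockout libraries, a log2 fold change of 0.27 with an SE of 0.19 (limma, adjusted p = 0.821). *Kdr* encodes VEGFR-2, the main signaling receptor for VEGF-A, and differed by 0.07 with a 95% interval from −0.67 to 0.81, and *Flt4*, which encodes the lymphatic receptor VEGFR-3, differed by 0.22 with a 95% interval from −0.33 to 0.77. These 3 genes were highest in knockout replicate 3, and *Kdr* was lowest of all in replicate 2, at 5.04 TPM against 6.93 to 9.54 TPM in controls. Of 6 genes for VEGF ligands and the co-receptor, 5 were higher and 1 was lower, none at an unadjusted p under 0.05. *Nrp1*, the neuropilin co-receptor, differed by 0.33 (limma, adjusted p = 0.628) and *Pgf*, placental growth factor, by 0.39 (adjusted p = 0.733).

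Of 7 receptors and signaling proteins, 5 were higher and 2 lower, and apart from *Apold1* none had an unadjusted p under 0.05. *Eng*, the TGF-β co-receptor endoglin, was the most abundant, at 31.2, 38.5 and 29.4 TPM in control and 34.1, 49.6 and 43.0 TPM in the knockout libraries. The groups overlapped in 1 pair of libraries, and the log2 fold change was 0.34 with an SE of 0.19 (limma, adjusted p = 0.707). *Ecscr*, a surface protein of endothelial chemotaxis, *Myct1*, an endothelial membrane protein, *Rasip1*, a RAS-binding protein of lumen formation, and *Aplnr*, the apelin receptor, were higher by log2 fold changes of 0.43, 0.38, 0.28 and 0.56. *Robo4*, a guidance receptor of the quiescent vessel, differed by −0.01, with a 95% interval from −0.74 to 0.72. Its knockout values were 2.46, 2.59 and 6.16 TPM, below and above controls at 3.17 to 3.87 TPM.

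Among secreted and matrix proteins, *Vwf* had the largest difference upward of the 34 genes on the log2(TPM + 0.5) scale with all 6 libraries. Without control replicate 1 it was 0.63, against 0.85 for both *Sox18* and *Sox7*. Without knockout replicate 2 it was smaller than those of *Aplnr* and *Gja4*. *Vwf* encodes von Willebrand factor, which tethers platelets and is made by megakaryocytes as well as endothelium. *Vwf* measured 25.5, 39.7 and 51.3 TPM in the control libraries and 54.5, 107 and 59.6 TPM in the knockout libraries. No knockout library was below a control, although control replicate 3 and knockout replicate 1 differed by little. The mean was 38.8 ± 12.9 TPM (SD, n = 3) in controls and 73.6 ± 28.8 TPM (SD, n = 3) in knockouts, or 1.90 times as much. The log2 fold change was 0.90 with an SE of 0.31, and it did not pass the adjustment (limma, unadjusted p = 0.0187, adjusted p = 0.435). Platelet marker RNA was also highest in knockout replicate 2, as given above, and its part in *Vwf* was not tested. *Egfl7*, a secreted protein of the vascular matrix, measured 79.0, 94.3 and 97.1 TPM in control and 86.7, 89.8 and 76.9 TPM in the knockout libraries. The groups overlapped, with a log2 fold change of −0.09 and a 95% interval from −0.43 to 0.25 (limma, adjusted p = 0.954). *Mmrn1* and *Mmrn2*, the multimerins, were higher by 0.30 and 0.50 with overlapping groups.

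Of 4 tested transcription factors, 3 were higher and 1 was lower by mean log2 value, and none was called. *Erg*, the ETS factor with the highest level among these regulators, measured 42.5, 47.6 and 44.7 TPM in the control libraries and 28.6, 37.6 and 29.5 TPM in the knockout libraries. All knockout libraries were below the controls. The mean was 44.95 ± 2.56 TPM (SD, n = 3) in controls and 31.9 ± 4.96 TPM (SD, n = 3) in knockouts, with a log2 fold change of −0.50 and an SE of 0.16 (limma, unadjusted p = 0.0127, adjusted p = 0.376). *Erg* (ENSMUSG00000040732) lies on the minus strand of chromosome 16 at 95359169 to 95586593 (GRCm38). Of its 3 promoter windows the most upstream, chr16:95586594-95586843, is shown on the minus strand because it and that of *Cldn5* were the only windows of the 26 without an ETS core, and neither holds a SOX core. The other *Erg* windows hold 2 and 4 ETS cores, and 1 of them holds a SOX core.
Erg: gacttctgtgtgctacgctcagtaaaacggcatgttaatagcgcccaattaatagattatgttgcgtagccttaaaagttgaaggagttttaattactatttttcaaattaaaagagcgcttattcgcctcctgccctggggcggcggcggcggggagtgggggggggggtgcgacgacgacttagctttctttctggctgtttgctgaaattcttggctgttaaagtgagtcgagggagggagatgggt

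The 3 SOXF genes had higher means in knockouts. *Sox18* measured 12.7, 12.6 and 12.3 TPM in control replicates 1, 2 and 3, a spread of 0.186 TPM (SD, n = 3) around 12.5, and 17.9, 33.7 and 19.4 TPM in the knockout libraries, with a mean of 23.7 ± 8.69 TPM (SD, n = 3). The groups did not overlap, and the log2 fold change was 0.84 with an SE of 0.24 (limma, unadjusted p = 0.00656, adjusted p = 0.288). *Sox7* measured 2.80, 2.73 and 2.0 TPM in control and 3.20, 6.36 and 4.81 TPM in the knockout libraries. Its groups did not overlap either, and the log2 fold change was 0.78 with an SE of 0.27 (limma, unadjusted p = 0.0177, adjusted p = 0.428). *Sox17*, the SOXF gene linked to arterial endothelium, measured 15.4, 10.4 and 12.9 TPM in control and 22.2, 25.9 and 14.9 TPM in the knockout libraries. Replicate 3 was below control replicate 1, and the log2 fold change was 0.66 with an SE of 0.24 (limma, unadjusted p = 0.0210, adjusted p = 0.447). None of the 3 passed the adjustment, and all were highest in knockout replicate 2. Without that library the log2 fold changes of *Sox18*, *Sox7* and *Sox17* were 0.56, 0.57 and 0.50. *Prox1*, the regulator of lymphatic identity, was below the minimum for testing, at 0.45, 0.44 and 0.39 TPM in control and 0.49, 0.60 and 0.46 TPM in the knockout libraries. Its groups did not overlap, with values this near 0 given to 2 decimals only (exact permutation test, two-sided p = 0.1).

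**Figure D4:**
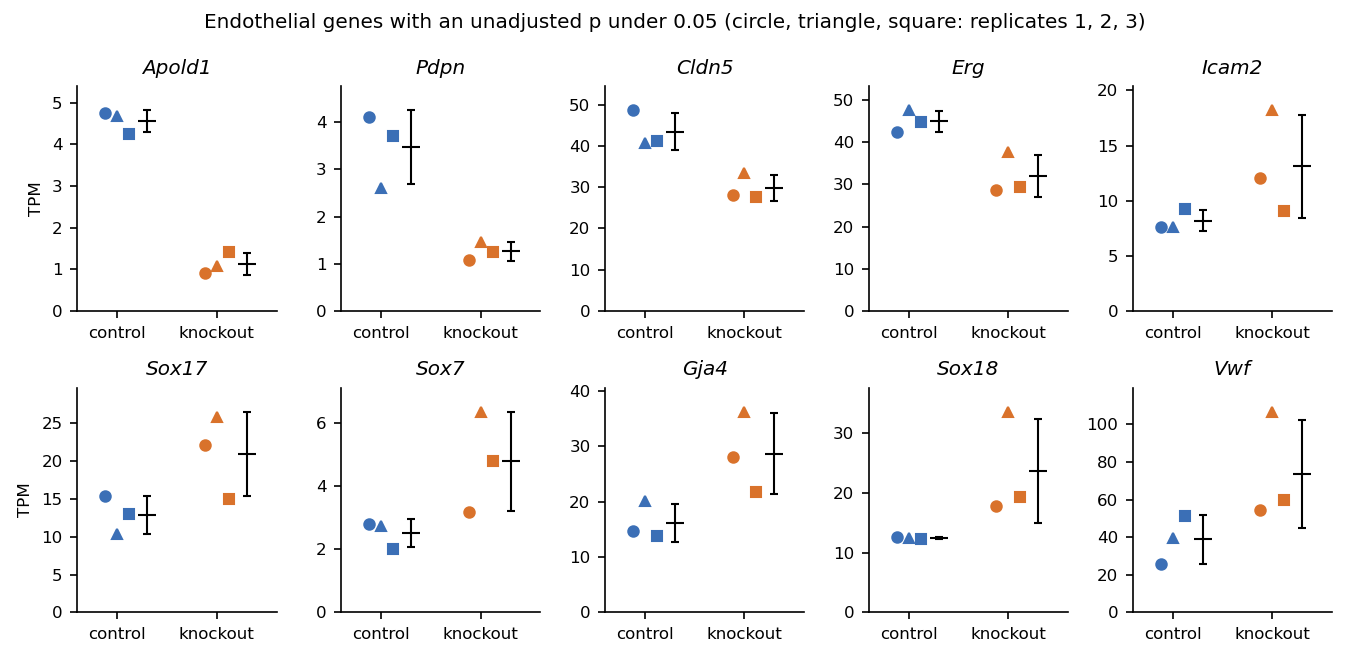
TPM (y axis, from 0) of the 10 endothelial genes with an unadjusted p under 0.05 in control (blue) and knockout (orange) libraries, with circles, triangles and squares for replicates 1, 2 and 3 and black bars for the mean and SD (n = 3). *Apold1*, *Pdpn*, *Cldn5* and *Erg* were lower in all knockout libraries, and the triangle of replicate 2 was highest for the other 6 genes.

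Ratios between endothelial genes of the same library were then taken, which cancel the amount of endothelial RNA only as far as both genes come from endothelium. They were chosen after the values were seen and were not tested. The ratio of *Apold1* to *Cdh5* was 0.178, 0.166 and 0.175 in control and 0.0341, 0.0302 and 0.0377 in the knockout libraries. That of *Cldn5* to *Cdh5* was 1.82, 1.44 and 1.69 against 1.06, 0.932 and 0.740, and that of *Erg* to *Cdh5* was 1.59, 1.69 and 1.84 against 1.09, 1.05 and 0.789. None of these 3 overlapped between groups. Summed TPM of *Sox7*, *Sox17* and *Sox18* divided by that of *Erg* was 0.726, 0.539 and 0.609 in control and 1.51, 1.75 and 1.33 in the knockout libraries. *Vwf* to *Cdh5* overlapped, at 0.956 to 2.11 in control and 1.595 to 2.99 in knockout mice, as did *Pecam1* to *Cdh5*, at 2.57 to 4.10 and 2.32 to 5.59. *Gja4* to *Cdh5* overlapped as well, at 0.549 to 0.713 and 0.580 to 1.07, although *Gja4* alone did not, and so did *Sox17* to *Cdh5*, at 0.369 to 0.578 and 0.400 to 0.841, and *Icam2* to *Cdh5*, at 0.270 to 0.381 and 0.242 to 0.510. *Sox18* to *Cdh5*, at 0.445 to 0.505 and 0.520 to 0.942, and *Sox7* to *Cdh5*, at 0.0822 to 0.105 and 0.121 to 0.178, did not. *Cdh5* itself differed by a log2 fold change of 0.31, and ratios to it carry that difference.

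**Figure D5:**
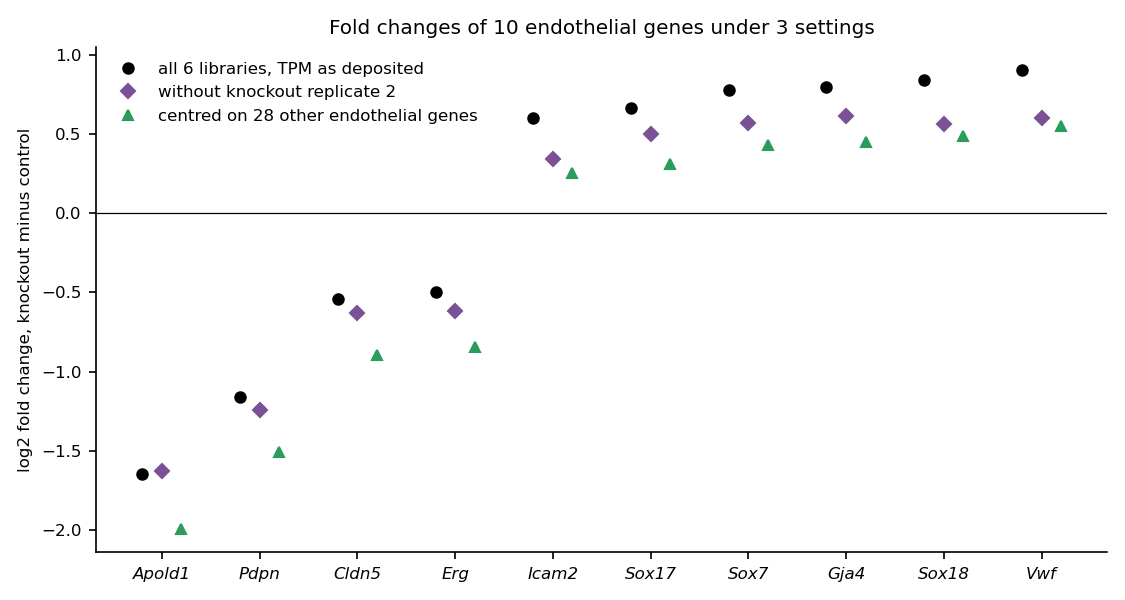
Log2 fold changes (y axis, knockout minus control) of the 10 endothelial genes with an unadjusted p under 0.05, with all 6 libraries (black), without knockout replicate 2 (violet) and after each library was centered on 28 other endothelial genes (green). Each gene keeps its sign in all 3 settings, and centering lowers every value.

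The arterial connexins were both higher. *Gja4*, connexin 37, measured 14.6, 20.1 and 13.8 TPM in the control libraries and 28.1, 36.3 and 21.7 TPM in the knockout libraries. The groups did not overlap, although control replicate 2 and knockout replicate 3 lay close. The mean was 16.2 ± 3.43 TPM (SD, n = 3) in controls and 28.7 ± 7.31 TPM (SD, n = 3) in knockouts, a log2 fold change of 0.80 with an SE of 0.23 (limma, unadjusted p = 0.00695, adjusted p = 0.295). *Gja5*, connexin 40, measured 8.48, 7.58 and 12.2 TPM in control and 11.4, 30.8 and 10.4 TPM in the knockout libraries, so that its log2 fold change of 0.71 came with replicate 2 (limma, adjusted p = 0.709). *Gja4* (ENSMUSG00000050234) lies on the minus strand of chromosome 4 at 127311421 to 127314039 (GRCm38), about 27.0 Mb from *Prdm16*. Its 250 upstream bases, chr4:127314040-127314289 on the minus strand, are shown, as those of the higher connexin, with 2 ETS cores and 1 SOX core in capitals, with first letters 111, 10 and 86 bases before the start.
Gja4: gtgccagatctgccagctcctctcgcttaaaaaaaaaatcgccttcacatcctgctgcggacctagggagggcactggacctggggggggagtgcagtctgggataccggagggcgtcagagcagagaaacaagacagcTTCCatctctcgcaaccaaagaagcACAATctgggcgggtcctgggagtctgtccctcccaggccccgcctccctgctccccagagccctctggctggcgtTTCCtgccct

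*Pdpn*, which encodes podoplanin, a mucin-type protein of lymphatic endothelium that fibroblasts and mesothelium also make, had the second most negative fold change. It measured 4.11, 2.60 and 3.71 TPM in the control libraries and 1.07, 1.47 and 1.25 TPM in the knockout libraries. No library overlapped the other group. The mean was 3.47 ± 0.782 TPM (SD, n = 3) in controls and 1.26 ± 0.200 TPM (SD, n = 3) in knockouts, or 2.75 times as much in control. The log2 fold change was −1.16 with an SE of 0.25 (limma, unadjusted p = 0.00130, adjusted p = 0.121), and the unadjusted p was under 0.05 in all 16 alternatives. The other tested lymphatic genes among the 36, *Flt4* at 0.22 and *Mmrn1* at 0.30, were higher by fold change but with overlapping groups. Their 95% intervals ran from −0.33 to 0.77 and from −0.43 to 1.03. Of 5 tested rows of further lymphatic genes, 4 were higher and 1 was lower, led by *Nrp2* at 0.66 (limma, unadjusted p = 0.0322, adjusted p = 0.502). The lower row was an entry of *Ccl21a* at −0.75, and another entry of that gene was at 0.33. Of 7 adventitial fibroblast markers 6 were higher, none at an unadjusted p under 0.05, and 1 was lower. The lower marker, *Col1a1*, had a log2 fold change of −0.54 without overlap (limma, unadjusted p = 0.0212, adjusted p = 0.447). Summed TPM of the 7 was 1208 to 1351 in control and 993 to 1759 in knockout mice. Mesothelial markers were near 0, summing to 0.03 to 0.64 TPM in control and 0.31 to 0.58 TPM in knockout mice. The part of fibroblasts in the *Pdpn* values was not tested. *Pdpn* (ENSMUSG00000028583) lies on the minus strand of chromosome 4 at 143267431 to 143299564 (GRCm38), 11.02 Mb from *Prdm16*. An unadjusted p under 0.05 was found for 28.2% of the 195 tested genes that lie up to 15 Mb from *Prdm16*, against 8.54% on other chromosomes, and DNA linked to the floxed allele and loss of PRDM16 cannot be told apart there. The 250 bases upstream of *Pdpn*, chr4:143299565-143299814 on the minus strand, are shown for comparison with those of *Gja4* on the same chromosome, and hold 3 ETS cores and 1 SOX core in capitals, with first letters 235, 118, 90 and 168 bases before the start.
Pdpn: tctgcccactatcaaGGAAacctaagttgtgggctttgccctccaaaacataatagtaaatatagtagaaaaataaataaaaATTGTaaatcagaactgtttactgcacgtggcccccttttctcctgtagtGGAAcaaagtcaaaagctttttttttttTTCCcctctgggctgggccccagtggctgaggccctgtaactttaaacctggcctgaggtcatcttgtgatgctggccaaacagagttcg

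Leukocyte adhesion molecules of activated endothelium overlapped between groups. *Vcam1*, the ligand of integrin α4, measured 12.3, 13.0 and 21.9 TPM in control and 13.9, 29.5 and 15.6 TPM in the knockout libraries, with a log2 fold change of 0.28 and an SE of 0.32 (limma, adjusted p = 0.922). *Icam1*, the ligand of β2 integrins, differed by 0.31 and *Selp*, P-selectin of endothelium and platelets, by 0.34. All 3 were highest in knockout replicate 2 and lowest in control replicate 1. *Sele*, E-selectin, made by activated endothelium, was below the minimum, at 0.21 to 0.59 TPM in control and 0.16 to 0.87 TPM in knockout mice. Of 14 genes of the NF-κB pathway and its inducing cytokines, which drive these molecules, 11 were tested, with 8 higher and 3 lower. *Irf1* and *Tnfaip3* were higher by 0.45 and 0.50 (limma, adjusted p = 0.421 and 0.561). The cytokines *Tnf* and *Il1b* were below the minimum for testing, at 0.05 to 0.23 TPM and 0 to 0.84 TPM over all libraries. The cytokine *Il1a* was at 0 in every library, so that the tested genes include none of these cytokines. Of 7 leukocyte ligands, 6 were higher and 1 lower, with *Itgb2* and *Itgal* higher by 0.96 and 1.01 (adjusted p = 0.394 and 0.556). *Itgal* was near 0, at 0.17, 0.12 and 0.24 TPM in control and 0.62, 1.84 and 0.45 TPM in the knockout libraries. It passed the minimum mean for testing only through the knockout libraries. The 5 macrophage markers were all higher, 4 at an unadjusted p under 0.05, with summed TPM of 57.1 to 86.5 in control and 86.5 to 162 in knockout mice, and their part in these values was not tested.

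A list of 28 endothelial genes that are not members was likewise mostly higher, with 25 higher and 3 lower and a median log2 fold change of 0.34. *Calcrl*, the receptor for CGRP and adrenomedullin, rose, from 10.2, 13.2 and 11.4 TPM in control to 24.0, 23.8 and 25.1 TPM in the knockout libraries, a log2 fold change of 1.04 with an SE of 0.16 (limma, adjusted p = 0.0386). Its mean was 11.6 ± 1.48 TPM (SD, n = 3) in controls and 24.3 ± 0.699 TPM (SD, n = 3) in knockouts, without a peak in replicate 2. *Calcrl* was the only 1 of the 28 genes called, beside 0.355% of all tested genes called in either direction. Its call was not followed over the alternative settings. When each library was centered on these 28 genes, the median of the 34 endothelial genes was −0.04 and that of all tested genes −0.33, 15 of the 28 higher genes turned lower, and *Apold1* fell by 1.995 on the log2 scale (limma, adjusted p = 0.0192). Of 11 further arterial and venous genes, 6 were higher and 5 lower, with *Bmx*, an arterial kinase, at 0.76 (adjusted p = 0.556) and *Aqp1*, a water channel of endothelium and other cells, at −0.51 (adjusted p = 0.625).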

How the data were processed

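Gene expression was measured by polyA RNA-seq of 6 abdominal aortas, 3 per group, with paired reads of 151 bp and, by the labels, about 40 M read pairs a library. TPM, scaled to transcript length and to a common total, were deposited by the authors for 55426 genes in 2 decimals. The submitters' processing notes name bcl2fastq, cutadapt 2.3, FastQC 0.11.8, STAR 2.7.8a, RSEM 1.3.3, MultiQC 1.7 and GRCm38, with no role or settings. TPM share a total, so a few abundant transcripts can move every value, and read counts were not used here. Libraries were matched to mice by sample title.

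Genes that averaged 0.5 TPM or more were fitted as log2(TPM + 0.5) with limma 3.58.1 in R 4.3.3 (trended moderated variance, equal weights, two-sided, Benjamini-Hochberg over 15775 genes), after the fit was tested on simulated data. An exact permutation test was run on each member. Python 3.11.15 was used for tables, figures and RefSeq sequences, and positions are those of GENCODE M21. The members and all lists were chosen with earlier results of these data known. Full values are given for members with an unadjusted p under 0.05 or no overlap, for the highest member of each role and for *Pecam1*, *Cdh5* and *Vwf*. Alternatives were pseudocounts of 0.1 and 1, no minimum or a minimum of 2 TPM, 3 other scalings, no variance trend, array weights, a replicate block and each library left out.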

Additional observations from a re-analysis of the deposited data

How the results depend on the processing

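Each value below was recomputed with 1 choice changed. In the fit as described, 1 endothelial gene was called, 10 had an unadjusted p under 0.05, 8 did not overlap, the median log2 fold change was 0.31 and 56 of all genes were called. Pseudocounts of 0.1 and 1 and a minimum mean of 2 TPM changed none of these by over 1.5 times. With no expression minimum, 0 endothelial genes were called and 10 genes in all, and 9 endothelial genes had an unadjusted p under 0.05 in limma (beside 6.55% of all tested genes). All genes called numbered 153 with median-of-ratios size factors, 123 rescaled without mitochondrial and 45S genes, 93 centered on the other endothelial genes and 33 with no variance trend. Centering gave 5 genes at an unadjusted p under 0.05 (beside 14.8% of all tested genes) and a median of −0.042, by its construction near 0. Array weights gave 6 endothelial genes called, 24 at an unadjusted p under 0.05 (beside 20.1% of all tested genes) and 494 in all, with a weight of 10.1 for control replicate 1 and 0.414 to 0.954 for the others. The cause of the other shifts was not tested.

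Replicate numbers did not pair the samples, with correlations of the deviations of same-numbered libraries of −0.13, −0.11 and 0.02. A replicate block gave 0 endothelial genes called and 4 genes in all, with *Apold1* at an adjusted p of 0.164 in limma. At an unadjusted p under 0.05 there were 10 endothelial genes, beside 9.84% of all tested genes. With each library left out in turn, 0 to 1 endothelial genes were called, 6 to 13 had an unadjusted p under 0.05 (beside 6.36% to 9.09% of all tested genes), 8 to 17 did not overlap (beside 18.6% to 26% of all tested genes, since fewer libraries overlap less often), the median was 0.17 to 0.47 and 5 to 61 of all genes were called. The call of *Apold1* was lost on leaving out any 1 of the controls or knockout replicate 2. Array weights added calls for *Pdpn*, *Cldn5*, *Gja4*, *Sox18* and *Vwf*.

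Signs turned for genes with small fold changes. Under centering the log2 fold changes became −0.078 (*Flt1*), −0.28 (*Kdr*), −0.13 (*Flt4*), −0.073 (*Vcam1*), −0.044 (*Icam1*), −0.011 (*Selp*), −0.13 (*Cd34*), −0.17 (*Plvap*), −0.040 (*Cdh5*), −0.11 (*Esam*), −0.19 (*Podxl*), −0.0012 (*Emcn*), −0.0066 (*Eng*), −0.067 (*Rasip1*) and −0.048 (*Mmrn1*). *Robo4* became 0.00012 when rescaled and *Egfl7* 0.086 with array weights. With single libraries left out, signs turned for 8 genes, whose log2 fold changes ran from −0.29 to 0.40 (*Kdr*), −0.049 to 0.53 (*Vcam1*), −0.026 to 0.67 (*Selp*), −0.042 to 0.43 (*Cd34*), −0.15 to 0.42 (*Plvap*), −0.0069 to 0.69 (*Emcn*), −0.12 to 0.47 (*Podxl*) and −0.39 to 0.20 (*Robo4*).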
